A study of Mus musculus with 6 samples.

Results

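Transcripts of cardiac fibroblasts and of the non-collagen extracellular matrix were followed in fetal mouse hearts lacking pyruvate kinase M1, using 10 genes: *Pdgfra*, *Postn*, *Sparc*, *Fn1*, *Fbn1*, *Eln*, *Fbln2*, *Vcan*, *Dcn* and *Lum*. They were chosen by name, and all 10 were found among the 13809 genes of the count table and passed the filter on low counts. RNA-seq had been made from ventricular tissue at embryonic day 18.5 (E18.5), 3 libraries from wild type (WT) embryos and 3 from *Pkm1*-KO embryos. The KO carried a CRISPR/Cas9 deletion in the *Pkm1*-specific exon on both alleles, so that every cell type of the heart, fibroblasts included, was mutant, and homozygotes were obtained from heterozygote intercrosses. The labels give neither the sex of the embryos nor whether a library came from a single heart. Because the table's columns carry a genotype without a replicate number, the libraries are lettered a to c within each genotype by column order. As the hearts behind each library are not given, the p-values measure the spread between these libraries, which need not equal that between embryos.

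Cardiac fibroblasts arise mainly from the epicardium, are recognised by the PDGF receptor PDGFRA, and lay down the scaffold in which cardiomyocytes are embedded. In that scaffold fibronectin forms the early provisional network, fibrillin microfibrils carry elastin, large and small proteoglycans fill the space and set collagen spacing, and matricellular proteins such as periostin and SPARC tune how cells attach and how collagen matures. Around birth this matrix is being remodelled from a fetal, fibronectin- and versican-rich form towards a collagen-rich form. In bulk tissue, fewer cells of a type and less RNA per cell cannot be told apart.

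*Pkm* transcripts averaged 1318 ± 41.1 CPM (read counts scaled to library size; SD, n = 3) in WT libraries and 542 ± 10.1 CPM in KO libraries, which fits the genotype labels. The libraries held 15567624 to 19875546 counts, so that 3 counts corresponded to 0.153 to 0.197 CPM. WT c stood furthest from its group (chi-square per degree of freedom 3.76 against WT a, where WT a and WT b gave 1.56). *Xist*, transcribed from the inactive X chromosome of females, averaged 5.26 ± 0.500 CPM in WT libraries and 2285 ± 47.6 CPM in KO libraries, and 0 counts were found in the KO libraries for the Y-chromosome genes *Uty*, *Kdm5d*, *Ddx3y* and *Eif2s3y*. Sex and genotype cannot be told apart for any gene described here. The fibroblast markers *Tcf21*, *Ddr2* and *Col1a1* were detected in every library beside *Pdgfra*, *Dcn*, *Lum* and *Postn*, as the label of the gene group requires.

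Of the 10 genes, 7 were lower in KO hearts and 0 were higher at an adjusted p under 0.05 (edgeR's quasi-likelihood test, Benjamini-Hochberg adjusted over 13804 genes). Across all genes tested, 15.7% were called lower and 14.6% higher, 30.3% in either direction. At the unadjusted threshold the counts were also 7 and 0, and no gene of the 10 was called higher with DESeq2, limma voom or edgeR's other tests. The falls were small: the median log2 fold change of the 10 was -0.13, from -0.32 for *Postn* to -0.02 for *Fbln2*, where the median of all genes was 0.00. In 6 of the 10 genes every KO library lay below every WT library, a pattern held by 21.4% of all genes tested, and in 0 of the 10 did every KO library lie above (21.0% of all genes). The genes called were a secreted matricellular pair (*Postn*, *Sparc*), fibronectin, fibrillin-1 and the proteoglycans *Vcan*, *Dcn* and *Lum*. Those that did not pass were the receptor *Pdgfra*, *Eln* and *Fbln2*.

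**Figure D1:**
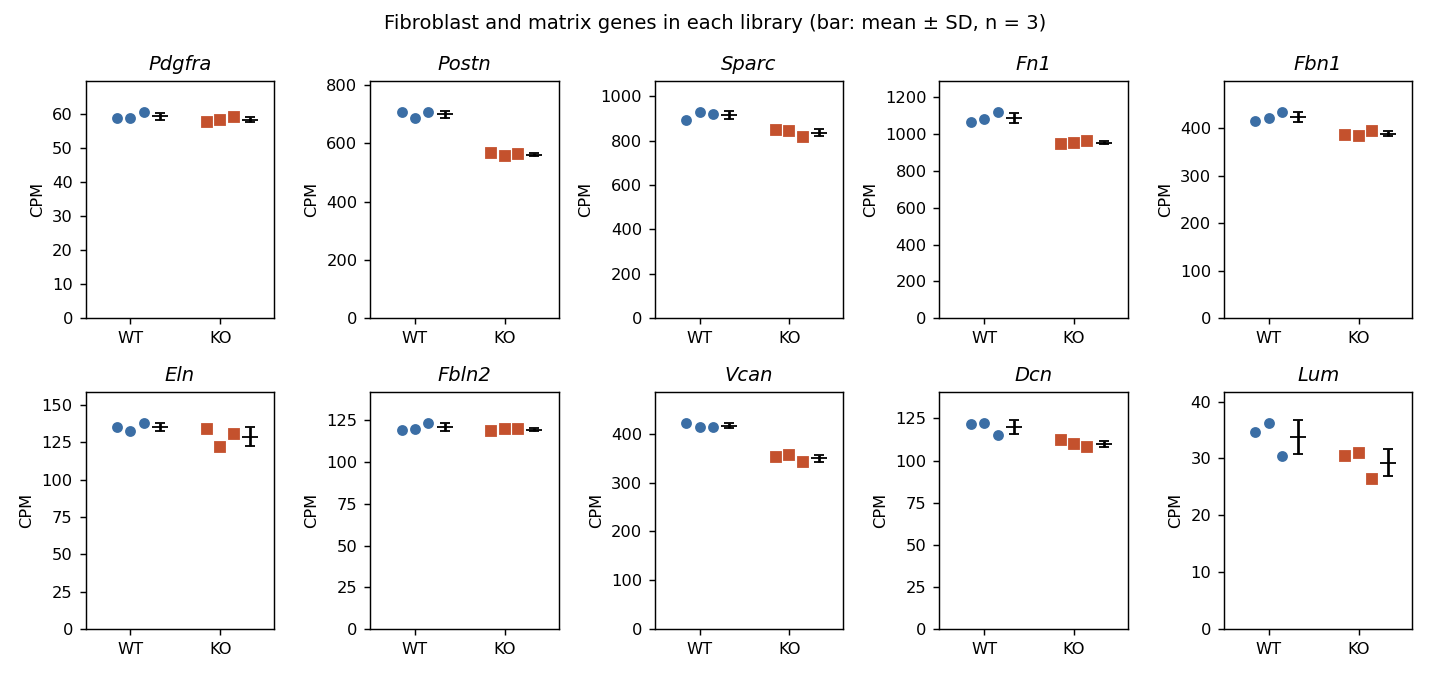
Normalised expression (CPM, linear axis from 0) of the 10 fibroblast and matrix genes, 1 panel per gene and 1 point per library (circles, WT; squares, KO), with the mean ± SD of each group of 3. The groups are apart in *Postn*, *Sparc*, *Fn1*, *Fbn1*, *Vcan* and *Dcn* and share part of their range in *Pdgfra*, *Eln*, *Fbln2* and *Lum*.

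In WT hearts the 10 transcripts covered a wide range of abundance. Per kilobase of annotated exon, *Sparc* had the highest level, at 242 ± 4.79 CPM per kilobase (SD, n = 3). It was followed by *Fn1* (93.3 ± 2.41), *Postn* (80.4 ± 1.36), *Fbn1* (35.0 ± 0.831) and *Vcan* (28.8 ± 0.372). Then came *Dcn* (20.5 ± 0.708), *Fbln2* (19.0 ± 0.374), *Eln* (16.7 ± 0.336) and *Lum* (13.8 ± 1.22), with *Pdgfra* lowest at 5.92 ± 0.105. No neighbours in this order overlapped over the 3 WT libraries. Each length counts every annotated exon of the gene, and the order could differ with the lengths of the transcripts expressed. On this scale the genes of secreted proteins stood above the receptor *Pdgfra*. Bulk counts do not show which cells made each transcript.

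*Pdgfra*, the PDGF receptor that marks cardiac fibroblasts and their progenitors, lies on chromosome 5 (GRCm38, 75152292 to 75198215, plus strand). It was at 58.7, 58.8 and 60.6 CPM in WT a to c and at 57.7, 58.2 and 59.1 CPM in KO a to c. The highest KO library lay above the lowest WT libraries, so the groups overlapped. The log2 fold change was -0.02 (SE 0.0480, 95% interval -0.12 to 0.07, adjusted p = 0.737, edgeR's quasi-likelihood test). A change of *Pdgfra* larger than this interval was therefore not seen, and smaller ones could not be resolved with 3 libraries a group.

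Among the matricellular proteins, *Postn* fell most of the 10. It encodes periostin, a secreted protein of activated fibroblasts and cushion mesenchyme that promotes collagen assembly, and lies on chromosome 3 (54361109 to 54391037, plus strand). *Postn* was at 706, 686 and 707 CPM in the WT libraries and at 565, 555 and 563 CPM in the KO libraries. All KO values were well below the lowest WT value. The mean fell by 19.9% (log2 fold change -0.32, SE 0.0261, adjusted p = 2.97e-10, edgeR's quasi-likelihood test).

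*Sparc*, a collagen-binding chaperone-like glycoprotein needed for collagen maturation, lies on chromosome 11 (55394500 to 55423183, minus strand). Its values were 895, 930 and 922 CPM in WT and 848, 842 and 818 CPM in KO hearts. The groups did not overlap, although KO a and WT a were close. *Sparc* fell by 8.69% (log2 fold change -0.13, SE 0.0255, adjusted p = 2.82e-04, edgeR's quasi-likelihood test).

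*Fn1* encodes fibronectin, on which integrins assemble the provisional fetal matrix, and lies on chromosome 1 (71585520 to 71653200, minus strand). It measured 1066, 1083 and 1121 CPM in WT and 947, 952 and 962 CPM in KO hearts. The KO libraries were tightly grouped and all below the WT libraries. *Fn1* fell by 12.5% (log2 fold change -0.19, SE 0.0249, adjusted p = 1.05e-06, edgeR's quasi-likelihood test). The annotation holds 17 *Fn1* transcripts, and gene-level counts do not separate the splice forms of fibronectin.

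Of the elastic fibre genes, *Fbn1* passed the threshold, whereas *Eln* and *Fbln2* did not. All had negative log2 fold changes, and the interval of *Fbn1* (-0.18 to -0.07) overlapped those of *Eln* and *Fbln2*. Whether their changes differed from each other was not tested. *Fbn1* encodes fibrillin-1, the main subunit of microfibrils, and lies on chromosome 2 (125300594 to 125507993, minus strand). It was at 415, 423 and 435 CPM in WT and at 387, 385 and 394 CPM in KO hearts, without overlap. *Fbn1* fell by 8.34% (log2 fold change -0.13, SE 0.0289, adjusted p = 0.00161, edgeR's quasi-likelihood test). On the opposite strand the gene *Gm9913* covers 20.1% of the *Fbn1* exon bases. Opposite-strand genes also cover 2.50% of the exon bases of *Fn1* and 3.30% of those of *Eln*, and a pair of them cover 4.55% and 1.66% of those of *Pdgfra*. The strand setting of the counting is not given in the sources used here, so reads of these overlaps cannot be told apart.

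*Eln*, the gene of elastin on chromosome 5 (134702593 to 134747323, minus strand), was at 135, 133 and 138 CPM in WT and at 134, 122 and 131 CPM in KO hearts. KO a lay above WT b, whereas KO b and KO c lay below all WT libraries. The log2 fold change was -0.07 (SE 0.0400, 95% interval -0.15 to 0.01, adjusted p = 0.198, edgeR's quasi-likelihood test). *Fbln2* encodes fibulin-2, which links fibrillin, elastin and basement membrane proteins, and lies on chromosome 6 (91212455 to 91272540, plus strand). It was at 119, 120 and 124 CPM in WT and at 118, 120 and 120 CPM in KO hearts, with the groups overlapping. Its log2 fold change was -0.02 (SE 0.0376, 95% interval -0.09 to 0.06, adjusted p = 0.774, edgeR's quasi-likelihood test).

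Among the proteoglycans, *Vcan* fell most clearly. Versican, the large hyaluronan-binding proteoglycan of the fetal myocardium and cushions, is encoded on chromosome 13 (89655312 to 89742509, minus strand). *Vcan* was at 423, 415 and 413 CPM in WT and at 353, 356 and 342 CPM in KO hearts. The groups were separated by a gap larger than the spread within either. *Vcan* fell by 16.0% (log2 fold change -0.25, SE 0.0290, adjusted p = 1.61e-07, edgeR's quasi-likelihood test). The annotation holds 9 *Vcan* transcripts, which the counts do not separate.

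The small leucine-rich proteoglycans decorin and lumican both bind collagen fibrils and limit their width, and their genes are neighbours on chromosome 10, 46984 bases apart on the plus strand (*Dcn* at 97479609 to 97518143, *Lum* at 97565128 to 97572703). *Dcn* was at 122, 122 and 115 CPM in WT and at 112, 110 and 108 CPM in KO hearts. Its groups did not overlap, with WT c the nearest to the KO libraries. *Dcn* fell by 8.11% (log2 fold change -0.12, SE 0.0395, adjusted p = 0.0191, edgeR's quasi-likelihood test). *Lum* was the least counted of the 10, with 464 to 711 counts a library, and was at 34.6, 36.3 and 30.5 CPM in WT and 30.4, 31.0 and 26.5 CPM in KO hearts. KO b lay above WT c, so the groups overlapped. *Lum* fell by 13.4% (log2 fold change -0.22, SE 0.0719, adjusted p = 0.0242, edgeR's quasi-likelihood test).

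The calls of both small proteoglycans depended on single libraries and on the tool. Without WT a, WT b, KO b or KO c the adjusted p of *Dcn* was 0.0602, 0.0936, 0.0586 and 0.0846, and with DESeq2 it was 0.0511 (range over the alternatives 9.55e-04 to 0.0936). Without WT a, WT b or KO c that of *Lum* was 0.0612, 0.163 and 0.182, and with DESeq2 it was 0.0677 (range 7.73e-04 to 0.182). *Postn*, *Vcan*, *Fn1*, *Fbn1* and *Sparc* passed the threshold under all 16 alternatives run.

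**Figure D2:**
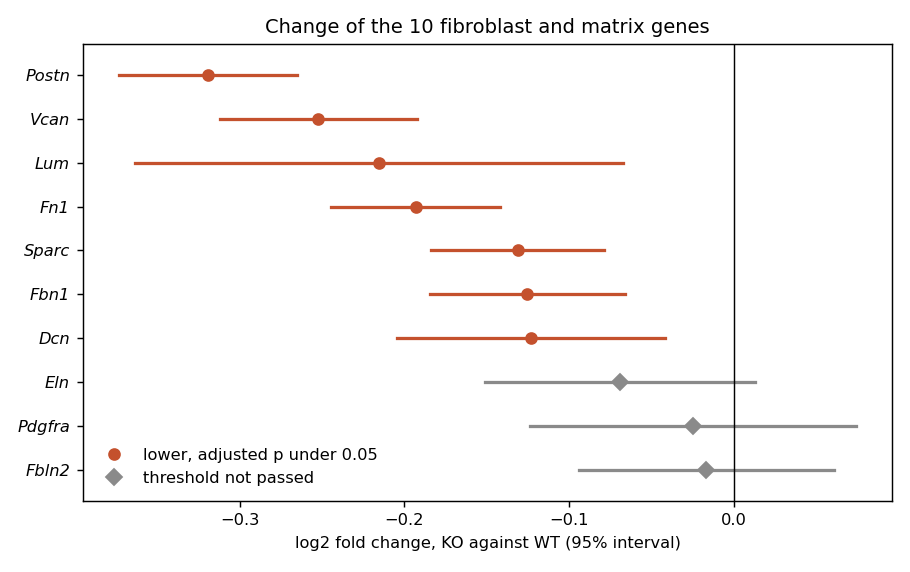
Log2 fold change of KO against WT (x axis) for each of the 10 genes, with the 95% interval of the edgeR fit (circles, lower at an adjusted p under 0.05; diamonds, threshold not passed). Values run from -0.32 (*Postn*) to -0.02 (*Fbln2*), and the intervals of *Eln*, *Pdgfra* and *Fbln2* cross 0.

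Upstream sequence was taken from RefSeq (GRCm38.p6) for the gene that fell most, for the proteoglycan that fell most and for the receptor whose groups overlapped. RefSeq windows were matched for 6 of the 10 genes. Each sequence holds the 250 bases before an annotated start, read 5′ to 3′ on the gene's strand. For *Postn* this is chr3:54360857-54361106 (plus strand), for *Vcan* chr13:89742513-89742762 (minus strand) and for *Pdgfra* chr5:75152001-75152250 (plus strand). Capitals mark the motif TATAAA, the motif CCAAT and the motif GGGCGG, searched on both strands.
Postn: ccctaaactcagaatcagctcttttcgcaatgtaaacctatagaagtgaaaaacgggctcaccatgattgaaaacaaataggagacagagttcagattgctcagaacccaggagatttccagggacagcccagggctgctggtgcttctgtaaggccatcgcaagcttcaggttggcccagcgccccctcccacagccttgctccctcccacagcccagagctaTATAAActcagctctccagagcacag
Vcan: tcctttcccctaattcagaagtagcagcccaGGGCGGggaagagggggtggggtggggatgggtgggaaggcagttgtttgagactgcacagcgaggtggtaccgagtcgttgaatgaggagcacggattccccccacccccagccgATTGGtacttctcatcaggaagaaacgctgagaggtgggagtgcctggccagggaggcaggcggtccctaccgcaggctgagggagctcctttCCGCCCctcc
Pdgfra: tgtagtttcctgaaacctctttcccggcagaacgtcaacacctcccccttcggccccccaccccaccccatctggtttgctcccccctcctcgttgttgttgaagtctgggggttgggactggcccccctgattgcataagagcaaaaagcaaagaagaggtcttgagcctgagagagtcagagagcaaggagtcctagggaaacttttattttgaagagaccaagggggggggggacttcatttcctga

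TATAAA, the core of the TATA box, began 26 bases before the *Postn* start and was found in no other matched gene of the 10. It was present in 12.4% of 32851 windows of the same length. CCAAT, the core of the box bound by nuclear factor Y, was found only in *Vcan*, on the minus strand relative to the gene and 103 bases before the start, whereas 33.8% of all windows held it. GGGCGG, the GC box, was present in *Vcan*, *Fbn1* and *Fbln2*, and in 32.7% of all windows. The *Pdgfra* window held no match to these letters. These matches are descriptions of the sequence and not binding sites.

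Reads of each matrix gene were then set against those of *Pdgfra* in the same library, a ratio that does not depend on library scaling and that was chosen after the values had been seen. *Postn* reads per *Pdgfra* read went from 11.8 ± 0.202 in WT to 9.62 ± 0.153 in KO hearts (SD, n = 3 each). For *Fn1* the ratio went from 18.4 ± 0.184 to 16.3 ± 0.0670, and for *Vcan* from 7.03 ± 0.193 to 6.01 ± 0.187. Of the 9 ratios, 5 had all KO libraries below all WT libraries (*Postn*, *Fn1*, *Vcan*, *Fbn1* and *Sparc*) and 4 overlapped. The same 5 genes were already separated in CPM, a pattern held by 21.4% of all genes tested. Since *Pdgfra* changed little, the ratios largely repeat the CPM values. The share of all genes separated per *Pdgfra* read was not computed. The ratio of *Fbln2* to *Pdgfra* was nearly the same in both groups, 2.04 in WT and 2.05 in KO hearts. With 3 libraries a group the exact permutation test (2-sided) cannot go below p = 0.1, which the separated ratios reached (0.183 after Benjamini-Hochberg adjustment over 11 ratios).

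**Figure D3:**
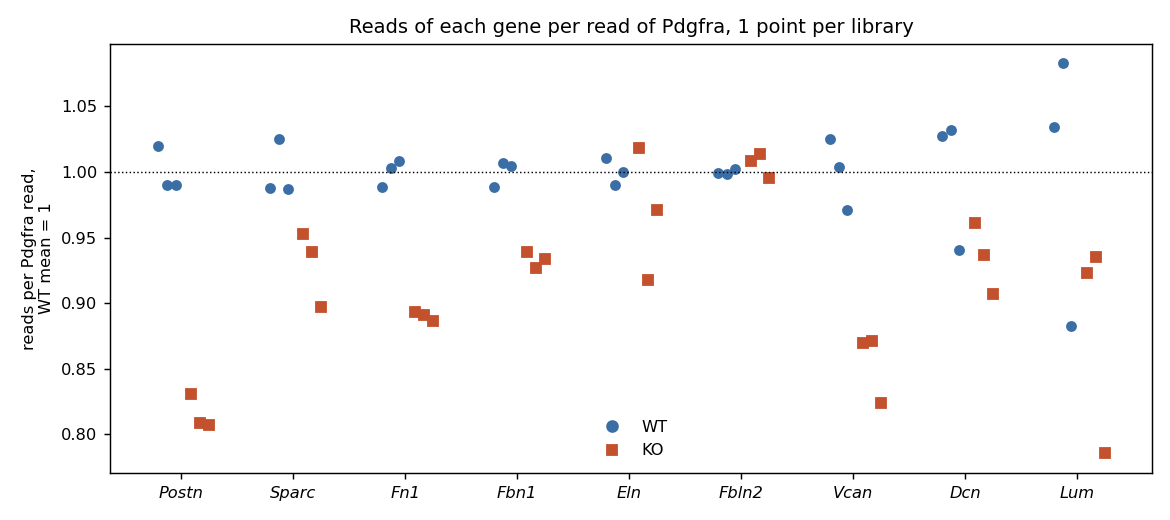
Reads of each of 9 genes per read of *Pdgfra* (y axis, relative to the WT mean, not starting at 0), 1 point per library (circles, WT; squares, KO; 3 each). The KO points lie below all WT points for *Postn*, *Sparc*, *Fn1*, *Fbn1* and *Vcan* and overlap with them for *Eln*, *Fbln2*, *Dcn* and *Lum*.

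By the smallest root mean square difference of centred log2 CPM over the 6 libraries, the genes most like *Pdgfra* among 9489 compared were *Nup88* (0.00835), *Fbln2* (0.00911) and *Gm15800* (0.00966). Those most like *Eln* were *Ndfip1* (0.0132), *Sulf1* (0.0145) and *Fyn* (0.0159). Differences of this size are smaller than the spread between libraries of 1 genotype.

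Other genes of the same matrix systems were read from the same fit. Of 116 tested, 40 were lower, 13 higher and 63 did not pass, with a median log2 fold change of -0.06. Of these, 7 were lower and 2 higher by at least 1.5-fold, as were 442 and 413 of all 13804 genes tested. These counts, and those of each list below, stand beside 15.7% lower and 14.6% higher over all genes tested. The largest falls were among the matricellular proteins, where 11 of 18 were lower and 2 higher (median -0.21). *Ctgf*, *Cyr61* and *Thbs1*, known targets of YAP and TGF-beta signalling, had log2 fold changes of -3.29, -2.54 and -1.96 (adjusted p = 1.81e-30, 3.24e-25 and 3.30e-24, edgeR's quasi-likelihood test). *Ctgf* went from 1228 ± 64.1 to 125 ± 3.08 CPM (SD, n = 3). The falls of *Postn* and *Sparc* were far smaller than these. *Spp1*, the gene of osteopontin, fell by 0.65 (adjusted p = 7.92e-04 in the same edgeR fit). *Sparcl1*, the closest relative of *Sparc* in the list and named after its value was seen, went from 372 ± 17.3 to 319 ± 12.95 CPM (adjusted p = 2.48e-05, same edgeR fit).

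Fibroblast markers outside the 10 genes were divided, where 15.7% of all genes tested were lower and 14.6% higher. Of 14 tested, 6 were lower and 0 higher in the edgeR fit (2 where p was not adjusted, and 2 after adjustment without WT c; 0 with DESeq2, limma voom and edgeR's other tests), with a median of -0.23. The 2 higher before adjustment were *Ddr2* and *Tbx18*, named after their values were seen. *Ddr2* went from 27.7 ± 1.49 to 30.4 ± 0.751 CPM, every KO library above every WT library (edgeR adjusted p = 0.109). *Tbx18* went from 52.6 ± 1.74 to 57.3 ± 4.31 CPM with overlapping groups (edgeR adjusted p = 0.101). *Pdgfrl*, a PDGF receptor-like gene, fell by 1.25 on the log2 scale (4.504 ± 0.837 to 1.89 ± 0.224 CPM, n = 3, edgeR adjusted p = 1.97e-05). The microfibril gene *Mfap5* fell by 0.60 (13.1 ± 0.978 to 8.65 ± 1.01 CPM, n = 3, edgeR adjusted p = 8.60e-05). *Dpt*, the gene of the small matrix protein dermatopontin and named after its value was seen, went from 57.9 ± 3.15 to 39.9 ± 0.532 CPM (adjusted p = 1.76e-08 in the edgeR fit). The lineage regulator *Tcf21*, also named after its value was seen, measured 18.7 ± 1.95 CPM in WT libraries and 18.8 ± 1.37 CPM in KO libraries (adjusted p = 0.929 in the edgeR fit). Like *Pdgfra*, it had overlapping groups.

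In the elastic fibre and microfibril list, 3 of 18 genes were lower, 3 higher and 12 did not pass (median 0.01), near the shares over all genes tested. The count lower was 1 without KO a. *Ltbp2*, a latent TGF-beta binding protein of microfibrils, was higher by 0.88 on the log2 scale, from 2.64 ± 0.333 to 4.89 ± 0.404 CPM (n = 3, edgeR adjusted p = 2.33e-04). *Fbn2*, the fetal fibrillin, was looked at after its value was seen. It rose from 459 ± 11.2 to 499 ± 12.1 CPM (log2 fold change 0.12, adjusted p = 0.00204, edgeR's quasi-likelihood test), opposite in direction to *Fbn1*. Reads of *Fbn2* per read of *Fbn1* were 1.08, 1.11 and 1.05 in WT and 1.29, 1.27 and 1.30 in KO hearts. The gap between the groups was larger than the range within either, at the smallest exact permutation p possible here (0.1). The fibulins *Fbln1* and *Fbln5* had log2 fold changes of 0.00 and 0.03 and, like *Fbln2*, did not pass.

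Among proteoglycans and hyaluronan genes, 7 of 22 were lower and 3 higher (median -0.07), and 4 were lower without KO b. Over all genes tested the shares were 15.7% lower and 14.6% higher. *Hapln1*, the link protein that ties versican to hyaluronan, was higher by 0.87 on the log2 scale at a low level (1.37 ± 0.602 to 2.60 ± 0.291 CPM, n = 3, edgeR adjusted p = 0.0115). Without WT c the log2 fold change was 0.62 and the adjusted p 0.0555 in the same edgeR fit. Of the small leucine-rich family, *Aspn*, named after its value was seen, went from 67.3 ± 6.50 to 52.5 ± 2.13 CPM (adjusted p = 3.09e-05, edgeR). Biglycan (*Bgn*) and *Ogn* did not pass (log2 fold changes of -0.10 and -0.13). The fibrillar collagens, the fibres that decorin and lumican decorate, had 3 of 5 lower in the edgeR fit, and 4 of 5 before adjustment (median -0.07). None of the 5 was higher, before adjustment (0) or with the other tools (0). The largest fall among those called was that of *Col5a2*, by 0.10 on the log2 scale (edgeR adjusted p = 0.0388), and *Col1a1* had -0.03. The count of 3 became 1 without WT a, 2 without KO c, and 0 without WT b, KO a or KO b or with DESeq2.

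**Figure D4:**
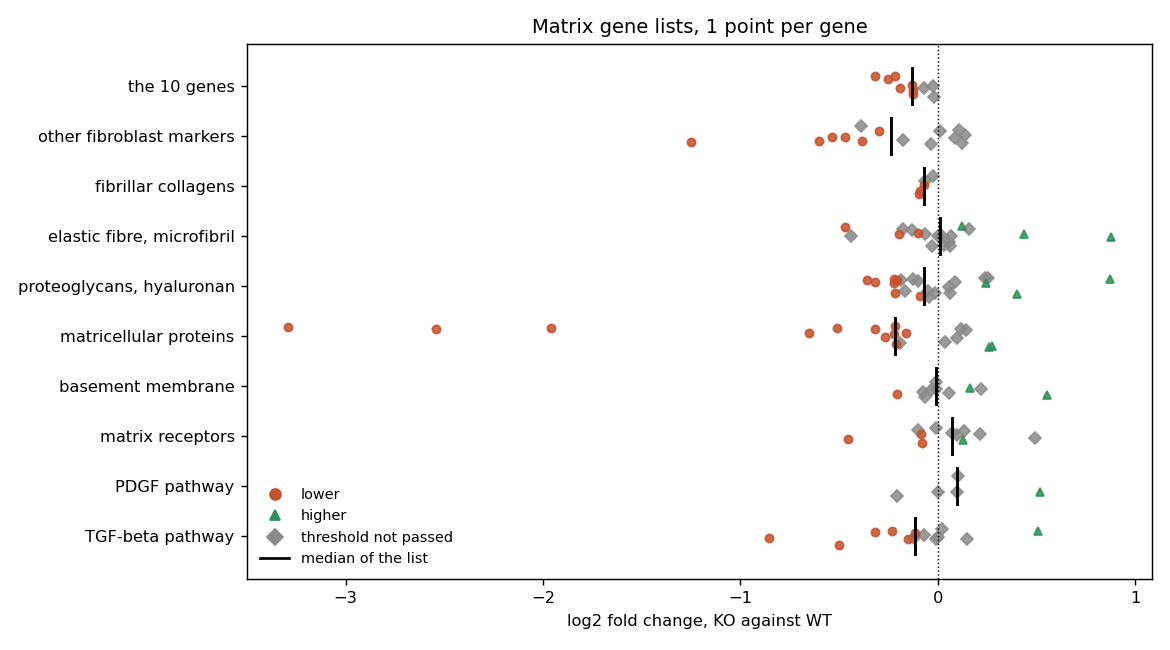
Log2 fold change of KO against WT (x axis) for the 10 genes and 9 lists of related matrix genes, 1 point per gene (circles, lower; triangles, higher; diamonds, threshold not passed), with the median of each list as a bar. The medians lie between -0.23 and 0.09, and the points furthest to the left are *Ctgf*, *Cyr61* and *Thbs1*.

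Receptors and ligands around these proteins were read next, beside the shares of 15.7% lower and 14.6% higher over all genes tested. Of 11 fibronectin and matrix receptors, 3 were lower and 1 higher (median 0.07), and the count higher was 2 without WT c and 0 without KO a, without KO c or with DESeq2. *Itga5*, the integrin chain that pairs with *Itgb1* as the main fibronectin receptor, fell by 0.45 on the log2 scale, from 281 ± 7.96 to 205 ± 9.57 CPM (n = 3, edgeR adjusted p = 1.35e-10). Of 5 PDGF pathway genes 1 was higher and 0 lower in the edgeR fit, and 0 were lower before adjustment or with the other tools. That gene was the ligand *Pdgfc* (2.61 ± 0.216 to 3.74 ± 0.510 CPM, n = 3, edgeR adjusted p = 0.0327), whose call was lost without WT a, WT b, WT c, KO a or KO c (adjusted p = 0.0522, 0.0579, 0.0835, 0.0764 and 0.153) and with DESeq2 (adjusted p = 0.108). *Pdgfrb*, the receptor of pericytes, had a log2 fold change of 0.00. Of 13 TGF-beta pathway genes, 6 were lower and 1 higher (median -0.11), with 3 lower in DESeq2 and 2 higher without WT b. The basement membrane list held 1 lower and 2 higher of 10 genes (median -0.01). Without WT a there were 2 lower and 1 higher, without WT c 2 lower and 3 higher, and 1 was higher without KO a or with DESeq2. Over all 16 alternatives the count lower ran from 1 to 3 and the count higher from 1 to 3. The highest of these was *Npnt*, an integrin ligand at a low level (log2 fold change 0.55, edgeR adjusted p = 0.0177, and 0.0701 and 0.0570 without WT a and without KO a, and 0.0696 with DESeq2).

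Markers of the other cell types in the tissue were summed in each library. Their calls stand beside 15.7% lower and 14.6% higher over all genes tested. Summed over the 10 genes, expression was 3975 to 4066 CPM in WT and 3523 to 3552 CPM in KO hearts. The 8 valve and cushion mesenchyme markers summed to 826 to 846 CPM in WT and 758 to 774 CPM in KO hearts, with 1 lower and 1 higher. The lower gene was *Tbx20*, which cardiomyocytes also express, and without it the other 7 summed to 78.7 to 81.1 CPM in WT and 79.8 to 82.2 CPM in KO hearts, with the groups overlapping. The 8 pericyte and smooth muscle markers summed to 1371 to 1400 against 1304 to 1309 CPM, with 4 lower and 1 higher. The lower sum came mainly from *Abcc9* (494 ± 8.56 to 442 ± 5.78 CPM), named after its value was seen. By contrast *Acta2*, the largest term of the sum, did not pass (568 ± 21.3 to 576 ± 8.11 CPM), nor did *Kcnj8* and *Tagln*. The gene called higher was *Cnn1* (16.9 ± 1.06 to 20.8 ± 0.662 CPM). The 8 epicardial markers ran the other way in sum, at 115 to 122 CPM in WT and 132 to 134 CPM in KO hearts. Of them 3 were higher and 5 did not pass, among these *Aldh1a2* (log2 fold change -0.12). The list shares *Tcf21* with the fibroblast markers. Of 9 endothelial markers 3 were lower and 1 higher (1384 to 1395 against 1338 to 1359 CPM), and of 7 leukocyte markers 1 was lower (39.3 to 42.5 against 38.1 to 44.4 CPM, overlapping).

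Atrial, cardiomyocyte and erythroid markers differed as well. The 6 atrial markers summed to 595 to 601 CPM in WT and 1006 to 1030 CPM in KO hearts, with 3 higher. The 10 cardiomyocyte markers, of which 8 were lower and 1 higher (0 higher without WT a, WT b, KO a or KO c and with DESeq2), summed to 132269 to 136419 CPM in WT and 124728 to 126158 CPM in KO hearts. The 2 erythroid markers in the table summed to 27.2 to 28.0 CPM in WT and 31.0 to 37.5 CPM in KO hearts, with 1 higher. No marker of these lists was at 0 in any library. The part of these shifts in the levels of the 10 genes was not tested.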

How the data were processed

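Total RNA was depleted of ribosomal RNA and sequenced as paired reads. Per the labels, reads were trimmed with cutadapt 1.18 and handled with HISAT2 and StringTie on mm10. The program that made the counts and its strand setting are not given in the sources used here. The authors deposited raw counts per gene for 6 libraries. They also deposited their own comparison, as a log2 fold change with a mean log2 CPM, a p-value and an adjusted p-value per gene, and these columns were not used.

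Counts were fitted with edgeR 4.0.16 (R 4.3.3): filterByExpr left out 5 of 13809 genes, TMM scaling, quasi-likelihood F-test of KO against WT, Benjamini-Hochberg adjustment over 13804 genes, threshold 0.05. The common biological coefficient of variation was 3.45%. CPM used TMM-scaled library sizes. Exon lengths and positions came from GENCODE on GRCm38. Ratios were tested with the exact permutation test. Intervals are 95%. Floors of 3 counts cover counting error only.

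The 10 genes and all lists were chosen with earlier results of these data known. Named genes of a related list were those called with at least 1.5-fold change, or otherwise the called gene with the largest change, at a mean of at least 1 CPM. A gene that this rule names is not reported here. Others are stated as named after their values were seen. Marker lists of other cell types are given as counts and sums.

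The fit was tested on simulated data. Of 200 genes changed by 1.15-fold, 66 were recovered, with 7 false calls. Of 200 changed by 1.5-fold, 175 were recovered, with 9 false calls. Most changes as small as 1.15-fold were therefore missed in the simulation. Alternatives were RLE scaling, TMM without *Rn45s*, no filter, at least 10 counts in every library, DESeq2 1.42.0, voom in limma 3.58.1, the exact and the likelihood ratio test in edgeR, X and Y genes left out, each library left out, and WT a and WT b summed (added after seeing the data).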

Additional observations from a re-analysis of the deposited data

How the results depend on the processing

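Of the 10 genes, 5 to 7 were lower and 0 higher across the 16 alternatives, against 7 and 0 as reported, and 5 to 7 were lower with a library left out. The related lists had 29 to 43 lower and 9 to 15 higher (29 to 41 and 9 to 15 with a library left out). Over all genes 1639 to 2306 were lower and 1362 to 2199 higher, and 1704 to 2306 and 1479 to 2013 with a library left out. Of 49 single genes recomputed, 0 turned direction and 42 kept direction and side of the threshold in every alternative that gave them a value. Beyond *Dcn*, *Lum*, *Hapln1*, *Npnt*, *Pdgfc* and *Col5a2*, a call was lost for *Tgfb1*. With WT a and WT b summed, the adjusted p of *Dcn* was 0.0553 and that of *Lum* 0.0562 in the edgeR fit. The reported log2 fold changes of *Postn* and *Vcan* ranged from -0.34 to -0.31 and from -0.26 to -0.24. No paired analysis was possible because replicate numbers are missing from the count table's columns. Among the genes with a lost call, counts were fewest for *Hapln1*, *Pdgfc* and *Npnt*.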

Other observations

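The TGF-beta ligands, whose values were seen before they were named, were each lower in KO hearts. *Tgfb3* went from 27.6 ± 1.75 to 19.5 ± 1.31 CPM (SD, n = 3, edgeR adjusted p = 8.28e-06) and *Tgfb2* from 56.2 ± 2.21 to 45.0 ± 0.975 CPM (n = 3, edgeR adjusted p = 3.73e-05). *Tgfb1* went from 35.6 ± 2.65 to 30.3 ± 3.79 CPM with overlapping groups (n = 3, edgeR adjusted p = 0.0225), and its call was lost without WT c, KO a or KO b (0.0563, 0.209 and 0.0594) and with DESeq2 (0.0511). *Smad7*, an inhibitor induced by the pathway, was higher, going from 52.7 ± 3.44 to 74.7 ± 0.428 CPM (n = 3, edgeR adjusted p = 1.37e-08). The receptors *Tgfbr1* and *Tgfbr2* (log2 fold changes 0.15 and -0.12) and the mediators *Smad2*, *Smad3* and *Smad4* (0.00, -0.07 and 0.02) did not pass. In *Tgfbr2* every KO library lay below every WT library. *Tgfbr3* (-0.11, edgeR adjusted p = 0.0368) and *Skil* (-0.15, edgeR adjusted p = 0.0206) were lower.

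Some other matrix genes were higher. *Gpc3*, a cell surface heparan sulphate proteoglycan, rose from 114 ± 1.70 to 135 ± 0.861 CPM (n = 3, edgeR adjusted p = 1.12e-05), and *Spon1*, a secreted adhesion protein, from 59.9 ± 1.23 to 72.5 ± 1.06 CPM (n = 3, edgeR adjusted p = 4.75e-05). *Nid2*, a basement membrane linker, rose from 182 ± 5.54 to 203 ± 2.88 CPM (n = 3, edgeR adjusted p = 7.37e-04), while *Nid1* did not pass (-0.07 on the log2 scale). *Emilin2*, an elastic fibre glycoprotein, was lower, from 142 ± 4.63 to 102 ± 2.63 CPM (n = 3, edgeR adjusted p = 4.60e-10), where *Emilin1* did not pass (-0.06). These genes were named after their values were seen.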
